A study of Mus musculus with 2 samples.

Results

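Genes that carry cells through mitosis were examined in RNA from C57BL/6J mouse central nervous system taken at embryonic day 14. The set was a list of 44 gene symbols, found through their Ensembl identifiers among the 43346 genes of the deposited mm10 tables, and all 44 were found. It was divided by function into G2/M cyclins and kinases (9 genes), the chromosomal passenger complex (4), spindle checkpoint and anaphase genes (9), centromere and kinetochore genes (7), condensin and chromosome structure genes (7), and spindle assembly and cytokinesis genes (8). The study holds 1 group of 2 biological replicates. Each replicate is a separate biosample of pooled male and female littermates, without transgene or treatment in the labels, and both carry the same donor identifier. The libraries were stranded and read from both ends, and came from poly(A)+ RNA over 200 nucleotides, depleted of ribosomal RNA, with ERCC spike-in RNAs added. Genes took 134760822 expected counts in replicate 2 and 99528934 in replicate 1, an expected count being an estimated number of fragments. With 1 group there is no contrast between conditions and no p-value, so roles are compared with each other and replicate 2 with replicate 1.

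Mitosis begins when the kinase Cdk1, bound to a B-type cyclin, is activated. Condensin packs the chromosomes, the kinetochore ties each one to spindle microtubules, and the spindle checkpoint holds back the anaphase-promoting complex until every kinetochore is attached, after which separase cuts cohesin and the cell is cleaved. In the embryonic central nervous system dividing cells are mainly radial glia at the ventricle and the intermediate progenitors derived from them, while young neurons have left the cycle. Many G2/M genes are known to carry in their promoters a CHR element, bound by the MuvB complex, and CCAAT boxes, bound by NF-Y.

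Promoter sequences were available for 37 of the 44 genes in a RefSeq table on GRCm38.p6 that holds 250 bases before and 50 after each annotated start. The CHR was searched as TTTGAA or TTCGAA and the NF-Y box as CCAAT, on both strands, so that TTCAAA and ATTGG are the same letters read from the other strand. The stretches below run from 120 bases before the start and end 30 bases later, 5′ to 3′ on the gene's own strand, with these letters in capitals. The first 8 are shown because they hold both motifs, and Nuf2 because it holds neither.
Cdk1: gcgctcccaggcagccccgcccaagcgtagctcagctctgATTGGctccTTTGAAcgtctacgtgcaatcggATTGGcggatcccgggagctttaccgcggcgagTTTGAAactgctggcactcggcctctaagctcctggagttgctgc
Ccnb2: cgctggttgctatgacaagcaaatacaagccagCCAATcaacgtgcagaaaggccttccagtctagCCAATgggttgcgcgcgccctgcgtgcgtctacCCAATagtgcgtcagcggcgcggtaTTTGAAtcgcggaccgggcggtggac
Cdc20: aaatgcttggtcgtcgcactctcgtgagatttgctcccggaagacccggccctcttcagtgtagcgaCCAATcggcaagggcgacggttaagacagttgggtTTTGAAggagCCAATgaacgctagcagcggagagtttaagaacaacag
Ube2c: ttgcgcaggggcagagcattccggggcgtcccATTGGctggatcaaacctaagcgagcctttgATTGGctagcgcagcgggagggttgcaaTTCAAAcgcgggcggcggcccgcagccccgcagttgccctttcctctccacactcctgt
Bub1: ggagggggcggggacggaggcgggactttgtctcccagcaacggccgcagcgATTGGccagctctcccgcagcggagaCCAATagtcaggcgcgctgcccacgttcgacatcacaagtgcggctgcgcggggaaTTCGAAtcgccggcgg
Top2a: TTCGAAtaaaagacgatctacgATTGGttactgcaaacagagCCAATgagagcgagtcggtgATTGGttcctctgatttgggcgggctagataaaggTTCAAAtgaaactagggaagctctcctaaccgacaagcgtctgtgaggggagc
Prc1: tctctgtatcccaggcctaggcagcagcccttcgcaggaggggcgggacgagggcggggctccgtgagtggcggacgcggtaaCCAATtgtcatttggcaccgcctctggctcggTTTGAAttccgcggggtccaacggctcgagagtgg
Hmmr: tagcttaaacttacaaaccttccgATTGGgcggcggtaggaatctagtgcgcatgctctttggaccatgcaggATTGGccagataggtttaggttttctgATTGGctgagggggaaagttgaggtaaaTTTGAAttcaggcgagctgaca
Nuf2: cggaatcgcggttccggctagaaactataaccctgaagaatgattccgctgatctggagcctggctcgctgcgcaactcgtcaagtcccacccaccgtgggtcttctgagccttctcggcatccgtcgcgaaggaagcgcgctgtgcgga
On GRCm38.p6 (mm10) these stretches lie for Cdk1 at chr10:69352883-69353032 on the - strand, Ccnb2 at chr9:70421525-70421674 on the - strand, Cdc20 at chr4:118437314-118437463 on the - strand, Ube2c at chr2:164769809-164769958 on the + strand, Bub1 at chr2:127831830-127831979 on the - strand. They lie for Top2a at chr11:99024160-99024309 on the - strand, Prc1 at chr7:80294331-80294480 on the + strand, Hmmr at chr11:40733408-40733557 on the - strand, Nuf2 at chr1:169531435-169531584 on the - strand. Each stretch is 150 bases long. In 33 of the 37 genes a window held the GENCODE M21 start of the gene's most abundant transcript, and in Plk4, Mad2l1, Pttg1 and Prc1 it did not.

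A CHR was found in 28 of the 37 promoters (75.7%), against 20.2% of 17492 promoters of protein-coding genes. CCAAT was found in 28 (75.7%), against 42.3% of protein-coding genes. Both motifs stood in 26 promoters (70.3%), against 8.22% of protein-coding genes. In 24 of the 37 (64.9%) a CHR lay within 40 bases of the start, against 4.34% of protein-coding genes.

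In the promoters shown, the CCAAT letters mostly stood before the CHR. A CCAAT that starts 20 to 40 bases before a CHR was present in 14 of the 37 promoters (37.8%), against 1.19% of protein-coding genes. The distance was 33 bases in Cdk1, 25 in Ccnb2, 28 in Ube2c and 28 in Hmmr. It was 35 bases in Cdc20, Ttk and Cdc25b. Pairs of CCAAT in the same orientation 30 to 36 bases apart stood in 8 promoters (21.6%), namely Ccnb1, Ccnb2, Cdk1, Aurka, Cdca8, Ube2c, Spc25 and Hmmr, against 1.87% of protein-coding genes. Both spacings were chosen after the positions had been seen. Neither motif was in 7 promoters (18.9%), those of Plk4, Birc5, Mad2l1, Pttg1, Nuf2, Ncaph and Nusap1, against 46.7% of protein-coding genes. For 3 of these the listed start differs from that of the most abundant transcript, by 270 bases in Pttg1, 169 in Mad2l1 and 68 in Plk4, so the bases before that transcript were searched in part at most. Ndc80 and Anln had a CHR alone, and Ccnb1 and Cenpe a CCAAT alone. The promoters of Ccna2, Cdc25c, Aurkb, Incenp, Spc24, Smc4 and Tpx2 were not analysed here. A match is a description of letters, not a binding site.

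**Figure D1:**
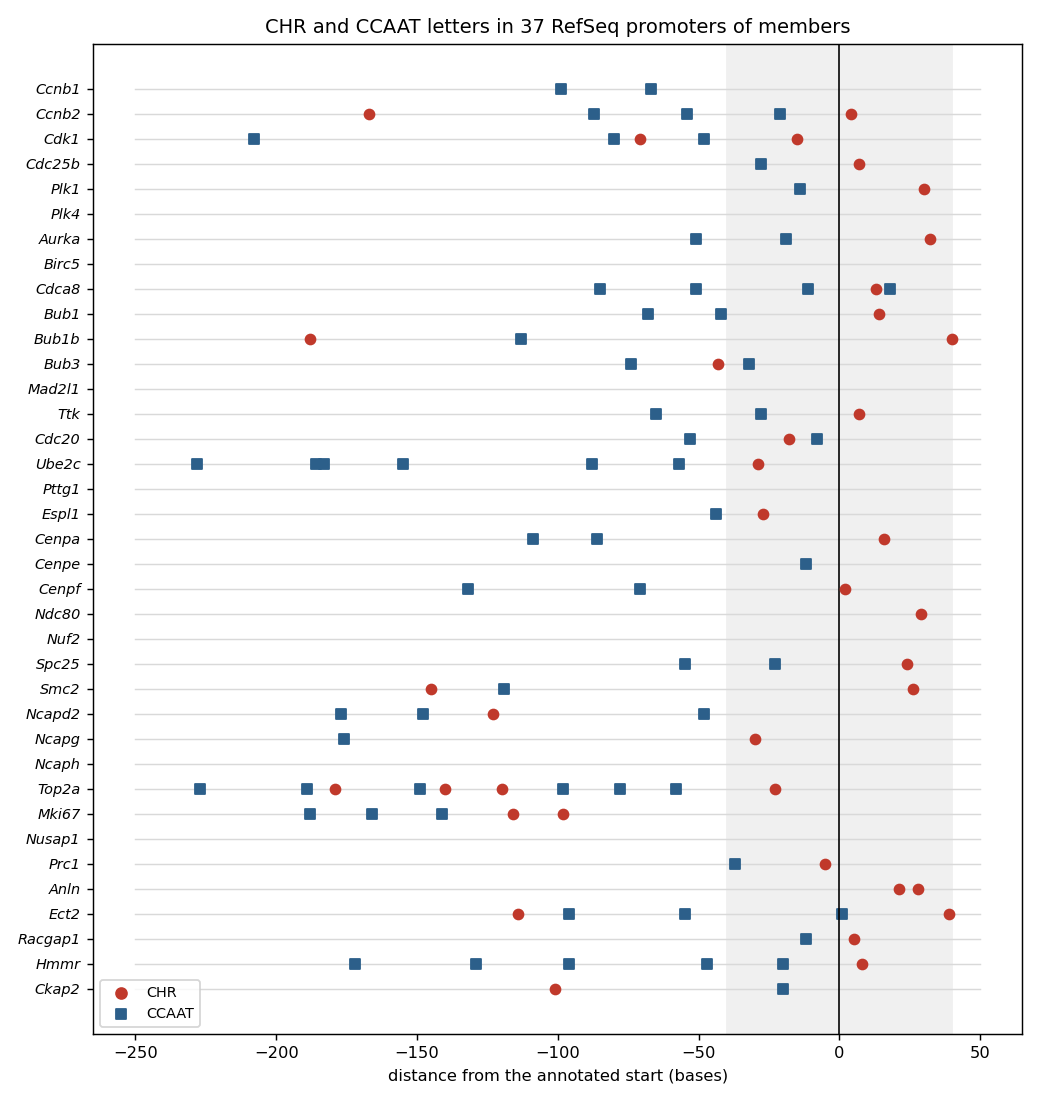
Positions of CHR (red circles) and CCAAT (blue squares) in bases from the annotated start, for the 37 members with a RefSeq promoter, ordered by role; each grey line is a window of 250 bases before to 50 after the start, and the shaded band covers 40 bases on either side of it. For genes with several windows 1 is drawn. Red circles gather in the band, in 24 of 37 promoters, with blue squares mostly to their left, and 7 lines are empty.

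All 44 genes were measured at 1 TPM (a share of all transcripts, corrected for their length and scaled to a fixed total) or more in both replicates, a level that 65.2% of 21474 protein-coding genes reached on average. A mean of 10 TPM was reached by 40 of the 44, against 44.4% of protein-coding genes. The median of the members was 34.2 TPM in replicate 2 and 26.7 TPM in replicate 1, a mean of 30.5 ± 5.34 TPM (SD, n = 2). Over 13501 protein-coding genes with enough counts for a ratio the medians were 21.4 and 21.6 TPM in replicates 2 and 1. The members summed to 2161 TPM in replicate 2 and 1726 TPM in replicate 1, or 0.226% and 0.181% of the TPM of all genes. Their expected counts lay between 931 and 30252. In bulk tissue, fewer cells of a type and less RNA per cell cannot be told apart.

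The order of the genes was nearly the same in both replicates. Spearman's rho of TPM across the 44 genes, which are not independent, was 0.98, and 9 genes were among the 10 highest in both. The highest member stood 26.1-fold above the lowest in replicate 2 and 30.5-fold in replicate 1. Pttg1 moved by the most places, being in place 25 in replicate 2 and place 17 in replicate 1.

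Role medians, averaged over the replicates, spanned 18.4 to 46.0 TPM. The chromosomal passenger complex had the highest median, 48.9 TPM in replicate 2 and 43.1 TPM in replicate 1, and the G2/M cyclins and kinases had 44.8 and 36.9 TPM. The spindle checkpoint and anaphase genes had 33.1 TPM in replicate 2 and 37.1 TPM in replicate 1, and the condensin and chromosome structure genes 31.8 and 23.6 TPM. The lowest medians were those of the spindle assembly and cytokinesis genes, 22.2 and 16.0 TPM, and of the kinetochore genes, 19.8 and 17.0 TPM. On the log2(TPM + 1) scale the median of the passenger complex stood above that of the kinetochore genes by 1.27 ± 0.02 (SD, n = 2). The median of the G2/M genes stood above it by 1.11 ± 0.05 (SD, n = 2). These SDs are between replicates and do not measure the spread of genes within a role. Single genes overlapped, with mean TPM of 6.73 to 73.5 for kinetochore, 23.9 to 59.1 for passenger complex and 10.1 to 160 for G2/M genes. Kinetochore and cytokinesis genes did not separate, with a difference of -0.03 ± 0.17 (SD, n = 2) that changed sign between replicates. Nor did the passenger complex and the checkpoint genes stand far apart, at 0.37 ± 0.24 (SD, n = 2).

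**Figure D2:**
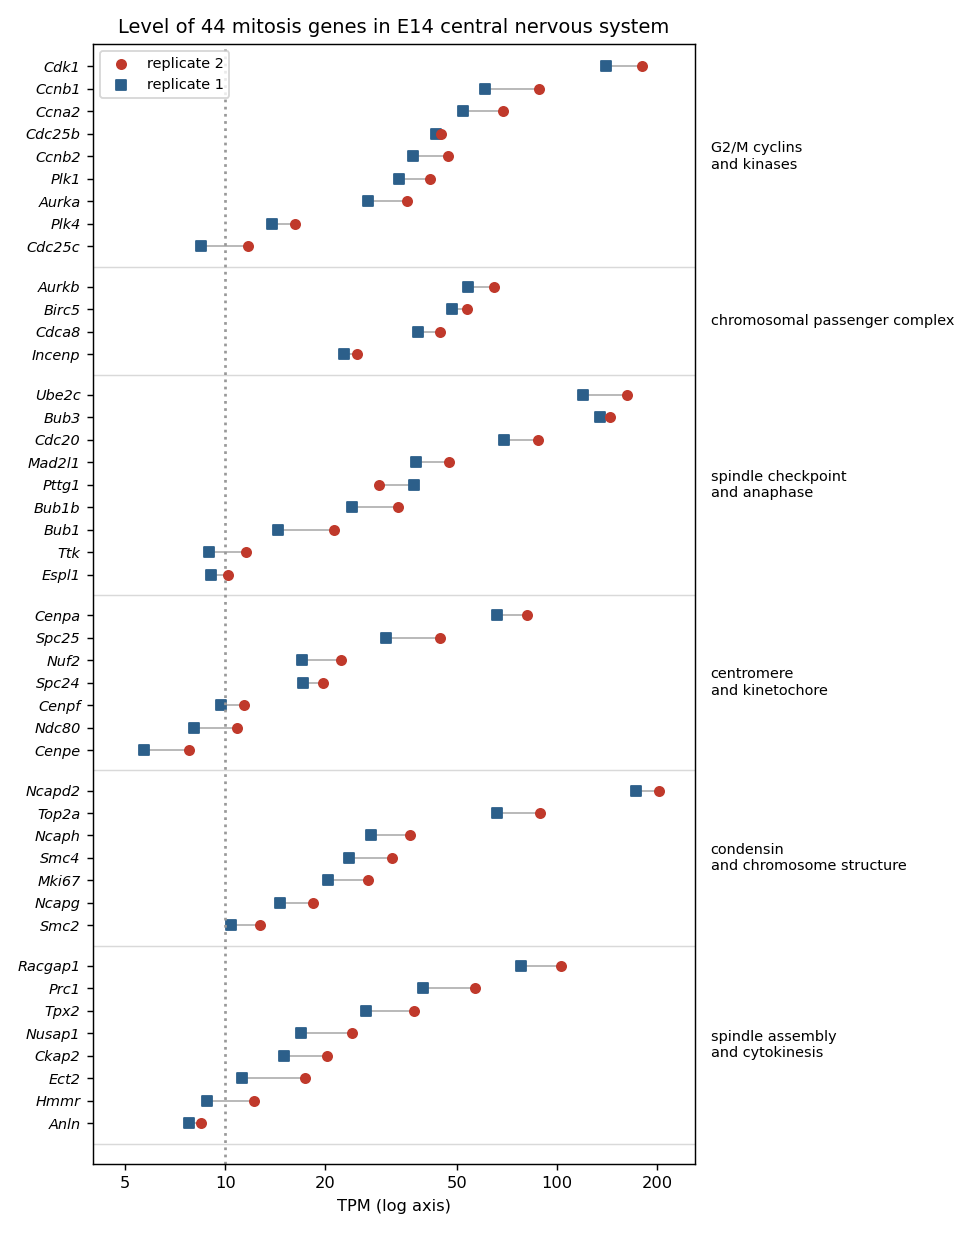
TPM of each member on a log axis, by role, in replicate 2 (red circles) and replicate 1 (blue squares); the dotted line marks 10 TPM. Red lies to the right of blue in every row but Pttg1, and the members run from Cenpe at 7.79 and 5.67 TPM to Ncapd2 at 203 and 173 TPM in replicates 2 and 1.

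Among the G2/M cyclins and kinases, Cdk1, the kinase that starts mitosis, was listed at 180 TPM in replicate 2 and 141 TPM in replicate 1. Its partners followed, with Ccnb1 at 88.4 TPM in replicate 2 and 60.7 TPM in replicate 1. Ccnb2, the other B-type cyclin, had 46.9 TPM in replicate 2 and 36.9 TPM in replicate 1. Ccna2, the cyclin of S phase and G2, lay between them at 68.8 and 52.1 TPM in replicates 2 and 1. The kinase thus stood above each of its cyclins in both libraries at the gene level. Of the phosphatases that activate Cdk1, Cdc25b had 44.8 TPM in replicate 2 and 43.1 TPM in replicate 1. Cdc25c, its relative, had 11.7 TPM in replicate 2 and 8.43 TPM in replicate 1, well below Cdc25b in both. Plk1, the polo kinase of centrosomes and kinetochores, had 41.4 TPM in replicate 2 and 33.3 TPM in replicate 1, and Plk4, which starts centriole duplication, had 16.2 and 13.9 TPM. Aurka, the kinase of spindle poles, had 35.4 TPM in replicate 2 and 26.9 TPM in replicate 1.

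The 4 subunits of the chromosomal passenger complex were the most even group. Aurkb, the kinase that corrects faulty attachments, had 64.5 TPM in replicate 2 and 53.7 TPM in replicate 1. Birc5 (survivin), which brings the complex to centromeres, had 53.6 and 48.1 TPM in replicates 2 and 1. Cdca8 (borealin), its partner there, had 44.2 and 38.2 TPM. Incenp, the scaffold that joins them to the kinase, had 25.0 TPM in replicate 2 and 22.7 TPM in replicate 1. The highest and lowest subunit differed 2.58-fold in replicate 2 and 2.36-fold in replicate 1. On protein-coding transcripts alone Aurkb had 42.8 TPM in replicate 2 and 33.8 TPM in replicate 1. That was below Birc5, at 53.5 and 48.1 TPM, and Cdca8, at 43.4 and 37.1 TPM.

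The checkpoint proper was led by Bub3, an adaptor that docks the checkpoint kinases on kinetochores, with 144 TPM in replicate 2 and 134 TPM in replicate 1. Mad2l1 (Mad2), the inhibitor of Cdc20, had 47.2 and 37.7 TPM in replicates 2 and 1. Bub1b (BubR1), which blocks the anaphase-promoting complex together with Mad2, had 33.1 and 24.0 TPM. The kinases that start the signal were lower. Bub1 had 21.2 TPM in replicate 2 and 14.4 TPM in replicate 1, and Ttk (Mps1) had 11.6 and 8.96 TPM. Within the mitotic checkpoint complex of Bub3, Bub1b, Mad2l1 and Cdc20, the highest subunit stood 4.36-fold above the lowest in replicate 2 and 5.60-fold in replicate 1.

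The genes of anaphase also ranged from high to low. Ube2c, the ubiquitin-conjugating enzyme of the anaphase-promoting complex, had 163 TPM in replicate 2 and 120 TPM in replicate 1. Cdc20, the activator of that complex, had 87.4 and 69.3 TPM in replicates 2 and 1. Espl1 (separase), the protease that cuts cohesin, had 10.2 TPM in replicate 2 and 9.08 TPM in replicate 1. Pttg1 (securin), the inhibitor that holds separase until anaphase, had 29.1 TPM in replicate 2 and 37.1 TPM in replicate 1. Securin was above separase in both libraries, and securin alone of the 44 genes was lower in replicate 2.

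Among centromere and kinetochore genes, Cenpa, the histone H3 variant that marks centromeres, had 81.1 TPM in replicate 2 and 66.0 TPM in replicate 1. The NDC80 complex is a rod of 4 subunits that grips microtubules. Spc25 had 44.3 TPM in replicate 2 and 30.4 TPM in replicate 1, Nuf2 had 22.3 and 17.0 TPM, and Spc24 had 19.8 and 17.1 TPM. Ndc80 itself, which holds the microtubule-binding end with Nuf2, was lowest at 10.9 TPM in replicate 2 and 8.03 TPM in replicate 1. Spc25 was thus 4.07-fold above Ndc80 in replicate 2 and 3.79-fold in replicate 1. Cenpe, a kinesin that moves chromosomes to the spindle equator, was the lowest of all 44 members, with 7.79 TPM in replicate 2 and 5.67 TPM in replicate 1. Cenpf, a large protein of the outer kinetochore, had 11.4 and 9.71 TPM.

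Of the condensin I subunits, the ATPases Smc4 and Smc2 had 31.8 and 12.8 TPM in replicate 2, against 23.6 and 10.4 TPM in replicate 1. Ncaph, which bridges the ATPases, had 36.1 and 27.4 TPM in replicates 2 and 1. Ncapg, a HEAT-repeat subunit, had 18.4 and 14.6 TPM. Ncapd2, the other HEAT-repeat subunit, was the highest of all members, with 203 TPM in replicate 2 and 173 TPM in replicate 1. Much of that level came from short transcripts. Top2a, the topoisomerase that untangles sister chromatids, had 88.6 TPM in replicate 2 and 65.7 TPM in replicate 1, and Mki67 (Ki-67), a coat of mitotic chromosomes used as a proliferation marker, had 27.0 and 20.4 TPM.

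Among spindle and cytokinesis genes, Racgap1, a subunit of the centralspindlin complex that marks the cleavage plane, had 103 TPM in replicate 2 and 78.0 TPM in replicate 1. Prc1, which bundles the microtubules of the central spindle, had 56.6 and 39.5 TPM in replicates 2 and 1. Tpx2, an activator of Aurora A, had 36.9 and 26.5 TPM. Racgap1 was therefore well above its partner Ect2, the exchange factor that switches on RhoA, which had 17.3 TPM in replicate 2 and 11.2 TPM in replicate 1. The microtubule-binding genes Nusap1 and Ckap2 had 24.2 and 20.2 TPM in replicate 2, against 16.9 and 15.0 TPM in replicate 1. Hmmr, a spindle pole protein, had 12.2 TPM in replicate 2 and 8.83 TPM in replicate 1. Anln (anillin), the scaffold of the contractile ring, was the lowest of the group at 8.46 and 7.75 TPM.

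Transcript tables showed that some of these gene levels rest on short transcripts. In 43 of the 44 genes the transcript with the highest mean TPM was protein-coding, and it held a median of 81.5% of the gene's TPM, against 78.6% over 9528 protein-coding genes at 10 TPM or more. The same transcript led in both replicates for 42 genes, the exceptions being Prc1 and Smc4. In 12 genes a single transcript is annotated. Transcripts annotated with a retained intron held at least 25% of the mean TPM in 3 members (Ncapd2, Cdk1 and Ncapg), as in 1145 of those 9528 protein-coding genes.

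Ncapd2 was the clearest case. Its full-length transcript Ncapd2-201, 4629 nucleotides long, had 67.2 TPM in replicate 2 and 56.5 TPM in replicate 1. Ncapd2-208, a retained-intron transcript of 480 nucleotides, had 63.8 TPM in replicate 2 and 51.0 TPM in replicate 1. In fragments the picture was different, since protein-coding transcripts held 83.3% of the expected count in replicate 2 and 83.0% in replicate 1, but 34.2% and 33.9% of the TPM. Counted on protein-coding transcripts alone, Ncapd2 had 69.6 TPM in replicate 2 and 58.5 TPM in replicate 1. The range within condensin I then narrowed to 5.46-fold in replicate 2 and 7.14-fold in replicate 1, against 15.9 and 16.7 over all transcripts. The NDC80 complex kept a range of 3.88-fold in replicate 2 and 3.55-fold in replicate 1 on protein-coding transcripts. The passenger complex had 2.14-fold and 2.12-fold. The range of the mitotic checkpoint complex widened instead, to 4.95-fold in replicate 2 and 6.25-fold in replicate 1, against 4.36 and 5.60 over all transcripts.

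Cdk1 was split in a similar way. Cdk1-202, of 1253 nucleotides, had 85.6 TPM in replicate 2 and 66.7 TPM in replicate 1. The retained-intron transcript Cdk1-204, of 475 nucleotides, had 83.5 TPM in replicate 2 and 54.6 TPM in replicate 1. On protein-coding transcripts Cdk1 stood at 89.7 and 70.5 TPM in replicates 2 and 1, still above Ccnb1 at 66.5 and 47.1 TPM. In Ncapg protein-coding transcripts held 69.7% of the TPM in replicate 2 and 56.3% in replicate 1. Most of the rest lay in Ncapg-202, a retained-intron transcript of 468 nucleotides with 77.5 expected counts in replicate 2 and 74.4 in replicate 1.

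Cenpa was the one gene led by a transcript that is not annotated as protein-coding. Cenpa-202, annotated as a target of nonsense-mediated decay, held 47.4% of the TPM in replicate 2 and 45.4% in replicate 1. The protein-coding Cenpa-205 held 28.1% in replicate 2 and 24.2% in replicate 1. In Top2a the protein-coding Top2a-201 held 57.3% of the TPM in replicate 2 and 53.0% in replicate 1, nearly all the rest belonging to shorter processed transcripts, while protein-coding transcripts held 91.5% and 90.1% of its expected count.

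Coding isoforms also shared the expression of several genes. Prc1 was the most divided, its leading transcript holding 30.2% of the mean TPM. Prc1-208 had 16.3 TPM in replicate 2 and 12.8 TPM in replicate 1, and Prc1-206 had 17.6 and 9.58 TPM, so which of them led depended on the replicate. Smc4-202 and Smc4-201 were nearly level, with 12.2 and 11.8 TPM in replicate 2, against 8.71 and 8.89 TPM in replicate 1. Tpx2-202 held 47.8% of the TPM of Tpx2 in replicate 2 and 45.9% in replicate 1. Birc5 had a long second form, Birc5-202 of 3334 nucleotides, with 15.0% of the TPM in replicate 2 and 13.7% in replicate 1.

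**Figure D3:**
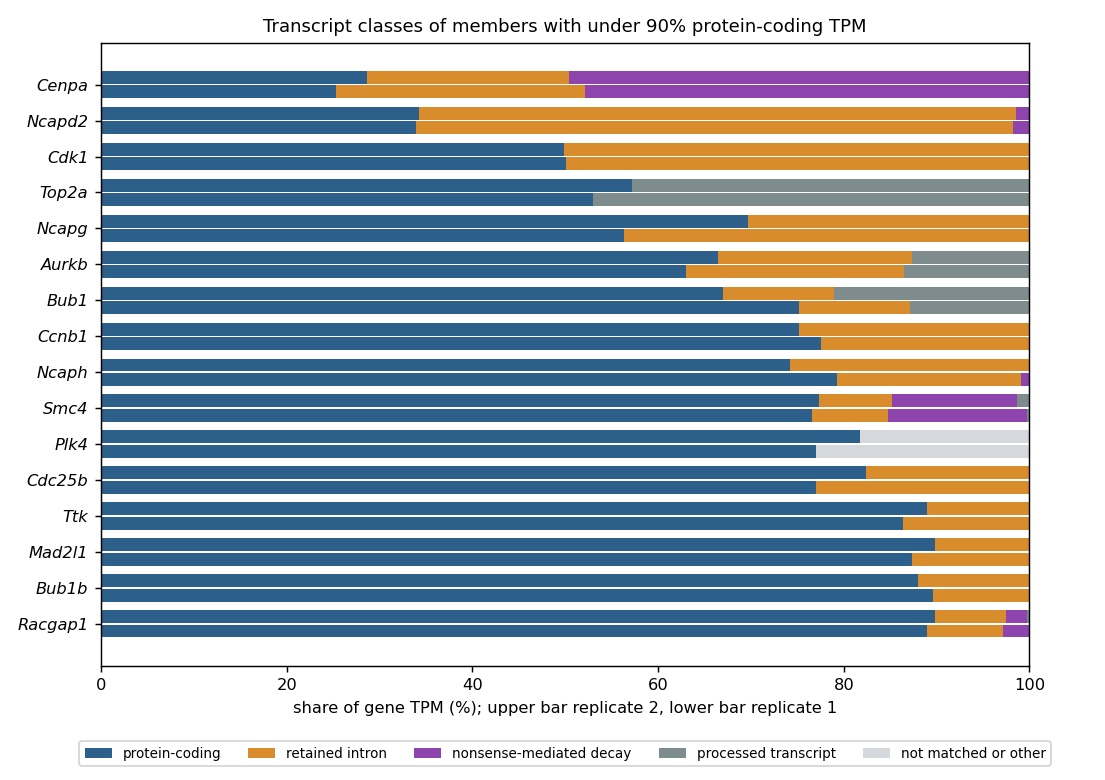
Share of gene TPM (percent) by annotated transcript class for the 16 members with a mean share under 90% in protein-coding transcripts, replicate 2 above replicate 1 in each pair of bars. Blue is the smallest in Cenpa, where it covers 28.7% and 25.3%, and orange retained-intron shares are widest in Ncapd2, at 64.4% and 64.3%.

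**Figure D4:**
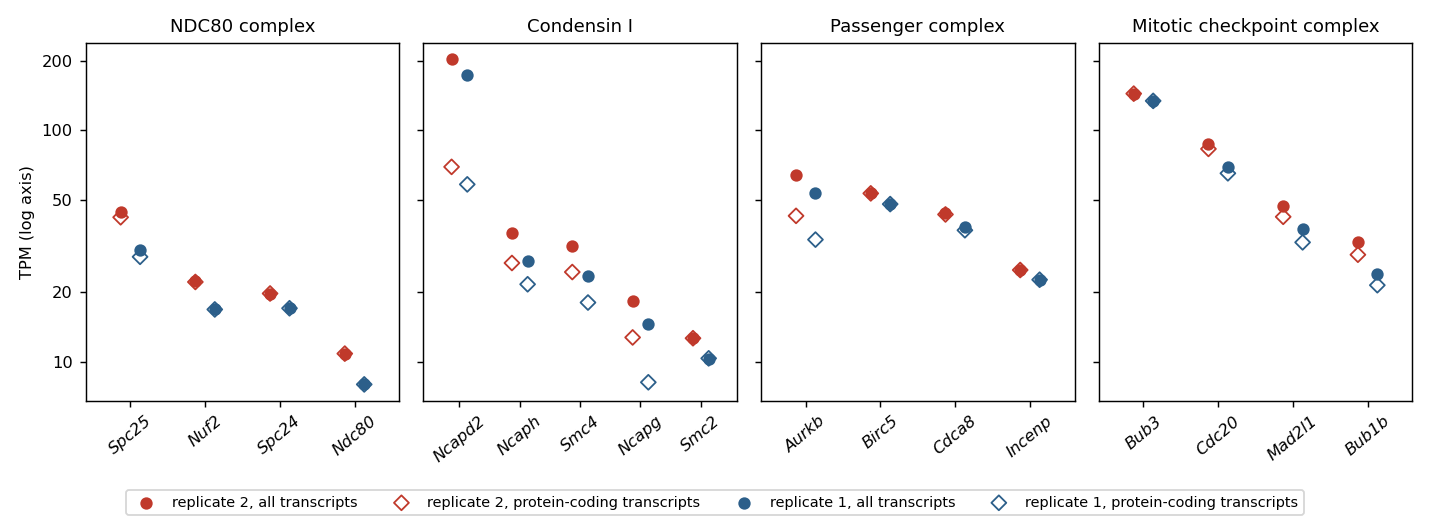
TPM on a log axis of the subunits of 4 complexes, from all transcripts (filled circles) and from protein-coding transcripts alone (open diamonds), replicate 2 in red to the left of replicate 1 in blue. The symbols coincide or nearly so in most subunits and part widest in Ncapd2, where 203 and 173 TPM become 69.6 and 58.5 TPM.

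The members were higher in replicate 2 almost as one. On expected counts scaled by TMM, a scaling that centres most genes on no change, 43 of the 44 had a log2 ratio of replicate 2 over replicate 1 above 0, as did 52.0% of the 14340 genes that averaged 200 or more expected counts. The members' median log2 ratio was 0.39, or 1.31-fold, with quartiles of 0.28 and 0.44, and the median over all those genes was 0.01. At least 25% higher in replicate 2 were 28 of the 44, against 5.66% of all genes. No member reached 2-fold in either direction, against 4.32% of all genes. With 1 library on each side these are differences between 2 libraries and have no replicate check.

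Ect2 had the highest ratio, with 5351 expected counts in replicate 2 and 2662 in replicate 1, a log2 ratio of 0.58. Spc25 followed at 0.56, from 4257 expected counts in replicate 2 and 2153 in replicate 1. Ncapg and Prc1 had ratios of 0.53 each, Nusap1 of 0.52 and Top2a of 0.51. At the other end stood Bub3 at 0.09, Anln at 0.11, Cdc25b at 0.12, Incenp at 0.13 and Espl1 at 0.15. High and low ratios were found within nearly every role. The passenger complex was the lowest role, with a median of 0.20 and 0 of 4 genes at least 25% higher in replicate 2. That count was 6 of 9 among G2/M genes, 6 of 9 among checkpoint and anaphase genes, 5 of 7 among kinetochore genes, 4 of 7 among condensin and chromosome structure genes and 7 of 8 among spindle and cytokinesis genes.

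Pttg1 went the other way. It had 1467 expected counts in replicate 2 and 1419 in replicate 1, which after scaling is a log2 ratio of -0.38. It was the only member at least 20% lower in replicate 2, against 15.8% of all genes. Both of its leading transcripts shared the direction, Pttg1-202 with 22.8 TPM in replicate 2 and 28.3 TPM in replicate 1, and Pttg1-203 with 3.08 and 3.85 TPM. In 40 of the 44 genes the interval bounds deposited with each TPM did not overlap and replicate 2 was higher, against 29.2% of all genes. Pttg1 was the only member without overlap in which replicate 2 was lower. For that direction no share over all genes was computed. The 3 genes whose intervals overlapped were Cdc25b, Plk4 and Cenpf.

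Genes of the same processes outside the list gave smaller differences. Of 103 other mitosis genes, 96 had a log2 ratio above 0 and 35 were at least 25% higher in replicate 2, with a median of 0.25. By process the medians were 0.35 for 24 other spindle and cytokinesis genes and 0.28 for 33 other kinetochore and centromere genes. They were 0.20 for 13 genes of condensin II and cohesin and 0.12 for 33 other mitotic regulators. At least 25% higher in replicate 2 were 15 of 24, 12 of 33, 2 of 13 and 6 of 33, in the same order, against 28 of 44 members. The other spindle and cytokinesis genes were thus close to the members, whose median was 0.39. The highest ratio among the 103 genes was 0.66, above the members' highest of 0.58. By level, Zwint, a kinetochore gene, was the highest of the 103, with 426 TPM in replicate 2 and 377 TPM in replicate 1. Knl1, which gathers the checkpoint proteins at the kinetochore, was low at 3.87 TPM in replicate 2 and 2.72 TPM in replicate 1. Of 22 DNA replication genes, 21 had a ratio above 0 and 6 were at least 25% higher in replicate 2, with a median of 0.19. Pcna, the sliding clamp of replication, had 233 TPM in replicate 2 and 177 TPM in replicate 1.

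Markers of the cells that divide in this tissue differed in the same direction. All 10 intermediate progenitor markers were at least 25% higher in replicate 2, with a median log2 ratio of 0.64 and a summed level of 680 TPM in replicate 2 and 450 TPM in replicate 1. Eomes, the factor that marks these cells, had 42.7 TPM in replicate 2 and 19.0 TPM in replicate 1. Neurog2, a proneural factor, had 97.1 and 43.1 TPM. Of 12 radial glia markers, 10 had a ratio above 0 and 5 were at least 25% higher in replicate 2, with a median of 0.21 and sums of 2487 TPM in replicate 2 and 2182 TPM in replicate 1. Young neuron markers had a median of 0.00, and 0 of 12 were at least 25% higher in replicate 2.

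Of the markers of other tissues and cells, those of muscle, cartilage and bone, skin and meninges differed in the opposite direction and by more. All 10 skeletal muscle markers were lower in replicate 2, with a median log2 ratio of -5.75 and sums of 13.3 TPM in replicate 2 and 660 TPM in replicate 1. Cartilage and bone markers summed to 129 TPM in replicate 2 and 842 TPM in replicate 1, with 10 of 10 lower in replicate 2. Skin and epithelial markers summed to 21.7 and 159 TPM in replicates 2 and 1, with 10 of 10 lower. Meningeal and fibroblast markers summed to 568 and 1446 TPM, again with 10 of 10 lower. Erythroid markers summed to 5916 TPM in replicate 2 and 11845 TPM in replicate 1, with 9 of 10 lower in replicate 2. Blood vessel markers had a median log2 ratio of -0.17, with 8 of 10 below 0. Microglia and leukocyte markers had a median of 0.11, with 7 of 10 above 0. Of the muscle markers, 3 of 10 reached 1 TPM in replicate 2 and 10 of 10 in replicate 1, and no marker of these lists was at 0. The part of these cell mixtures in the members' ratios was not tested, and tissue composition and replicate cannot be told apart.

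**Figure D5:**
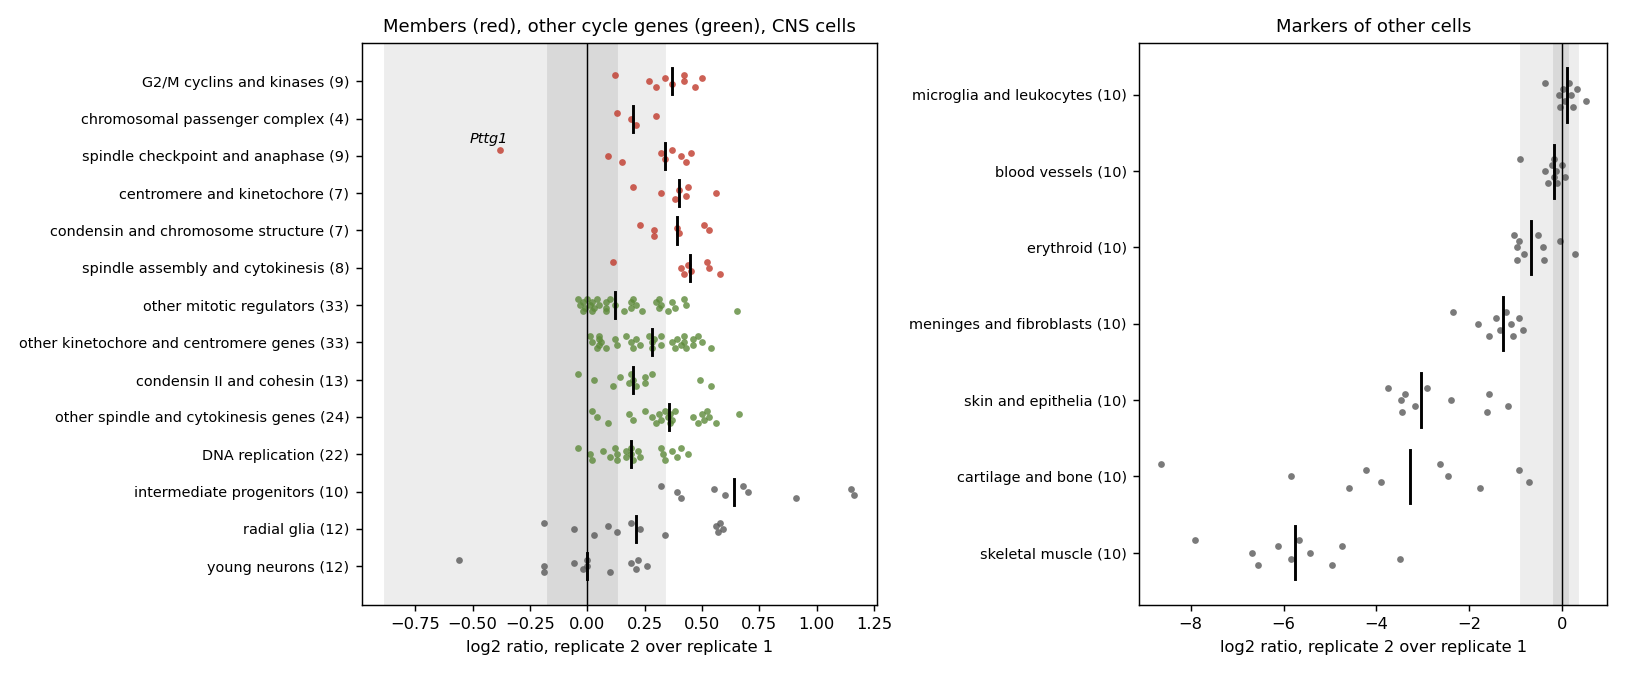
Log2 ratio of replicate 2 over replicate 1, 1 point a gene, with a black bar at each list's median and list sizes in brackets; the grey bands hold the central 50% (dark) and 90% (light) of the 14340 genes. Members (red) lie to the right of 0 except Pttg1 at -0.38, intermediate progenitor markers lie farther right, and muscle, cartilage and skin markers in the right panel lie far to the left, with medians of -5.75, -3.27 and -3.05.

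Set beside the promoters, the 26 members with both motifs had medians of 42.8 TPM in replicate 2 and 31.9 TPM in replicate 1, and log2 ratios between 0.09 and 0.58 with a median of 0.39. The 7 members with neither had medians of 29.1 TPM in replicate 2 and 27.4 TPM in replicate 1, and ratios between -0.38 and 0.52 with a median of 0.29. The 2 ranges overlapped. The -0.38 belongs to Pttg1, whose window does not reach the start of its most abundant transcript, as is also so for Mad2l1 and Plk4. The median ratio was 0.47 for the 2 members with CCAAT alone and 0.27 for the 2 with a CHR alone. It was 0.40 for the 7 members without a promoter sequence, so the ratios did not order by motif.

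Older mm9 tables of the same study, with Ensembl 65 genes, gave RPKM, reads scaled by length and library size, in 2 fields that no label ties to a replicate. All 44 members were listed there. Spearman's rho between the mean RPKM and the mean mm10 TPM was 0.96 across the 44 genes, which share the libraries. With the mean mm10 TPM of protein-coding transcripts alone it was 0.91. Bub3 was highest with a mean of 13.8 RPKM, followed by Cdk1 at 11.6 and Racgap1 at 10.6 RPKM. Ncapd2, the highest by gene TPM, had 8.45 RPKM there. Between the fields 42 of the 44 members were lower in field 2, with a median log2 ratio of field 2 over field 1 of -0.33. The share over all mm9 genes was not computed, so this count has no background. Pttg1 was again opposed, at 0.63, and Smc4 was at 0.02. The same ratio had a median of 5.60 for skeletal muscle markers, 3.29 for cartilage and bone markers, -0.14 for radial glia markers and -0.61 for intermediate progenitor markers. Which field is which replicate is not labelled, so no direction between replicates was taken from them.

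Splice junctions in the mm9 tables held 453471 reads within the members, from 2111 in Hmmr to 54221 in Ncapd2. Nearly all of these reads crossed annotated junctions. The share on junctions without annotation had a median of 0.994% and exceeded 5% in 1 gene, Prc1, at 6.69%. In Prc1, 590 of those reads crossed an intron of 86 bases on mm9 chr7:87449477-87449562 on the + strand, whose ends lay 4 bases from the nearest annotated exon end and 4 bases from the nearest annotated exon start.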

How the data were processed

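Poly(A)+ RNA-seq of 2 replicates was used as deposited. The deposited mm10 tables give, per gene and transcript, expected counts (estimated fragments that need not be whole), TPM over all features with spike-ins, FPKM, and the percent of a gene's TPM in each transcript, with GENCODE M4 as annotation, as deposited text states; aligner and quantifier: not given in the sources used here. The deposited mm9 tables give RPKM for Ensembl 65 genes and the read count of each splice junction. Symbols were matched by stable identifier to GENCODE M21, for 42462 of 43346 genes; 26248 features named by number and 97 control sequences were left out of library sizes. The members and lists were chosen with earlier results of these data known. All 44 members are named, and of other lists the highest and lowest gene and any with a log2 ratio past 1 in size, of which the text gives a few.

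Ratios used expected counts rounded to whole numbers, TMM factors (edgeR 4.0.16, R 4.3.3) and a prior count of 1, over 14340 genes with a mean of at least 200 counts. Tested on simulated counts for 14340 genes, planted folds of 2 and 0.5 came out as median log2 ratios of 1.01 and -1.00. Apart from the planted genes both simulated libraries had the same composition. Scaling between libraries that differ in tissue content, as here, was not tested. No test was run, since each side of the ratio is 1 library. Alternatives were size factors from DESeq2 1.42.0, total and spike-in scaling, TPM with pseudocounts of 1 and 0.1, FPKM, other TPM levels, each replicate alone and other motif windows; protein-coding transcripts alone and the first promoter window were added after seeing the data. TPM divides by an effective length, so a few fragments on a short transcript weigh heavily. Replicate 2 held 138440954 expected counts in all, 2.35% of them spike-ins, and replicate 1 held 102727538, with 2.45% spike-ins. Ccnb1 and Ncapd2 had expected counts that were not whole, so some of their fragments were divided with other features and their levels are less certain. Python 3.11.15, pandas 2.3.3, numpy 2.4.6 and matplotlib 3.10.9 were used.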

Additional observations from a re-analysis of the deposited data

How the results depend on the processing

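No paired analysis was possible because there is 1 group, so no replicate number is shared between groups. The median log2 ratio of the members stayed between 0.36 and 0.44 and the number at least 25% higher in replicate 2 between 26 and 34 under the scalings and pseudocounts tried and without the filter on counts, which raised the share of all genes past that fold to 16.3%; Pttg1 stayed below 0, from -0.39 to -0.32. Leaving out a replicate gave a median of 26.7 to 34.2 TPM, 36 to 42 members at 10 TPM or more, role medians of 36.9 to 44.8 (G2/M), 43.1 to 48.9 (passenger complex), 33.1 to 37.1 (checkpoint), 17.0 to 19.8 (kinetochore), 23.6 to 31.8 (condensin) and 16.0 to 22.2 TPM (cytokinesis), a difference of passenger complex and kinetochore of 1.26 to 1.28, and a median main transcript share of 80.9% to 82.9%. Protein-coding transcripts alone lowered the median to 25.0 TPM, the passenger complex to 39.3 TPM and the checkpoint genes to 31.0 TPM, since other transcripts no longer count. These falls exceeded the SD over replicates. Falls within that SD were seen for the G2/M genes (to 37.3), the condensin genes (to 23.6) and the kinetochore genes (to 18.2 TPM). Leaving spike-ins and mitochondrial genes out of the TPM raised every role median, since the fixed total is shared by fewer features. The rise exceeded the SD over replicates for the passenger complex (51.4), the checkpoint genes (39.3) and the kinetochore genes (20.5 TPM). It stayed within that SD for the G2/M genes (45.6), the condensin genes (30.9) and the cytokinesis genes (21.3 TPM). A pseudocount of 0.1 gave 1.31 for the difference of passenger complex and kinetochore. Protein-coding transcripts alone lowered that difference to 1.09 in replicate 2 and 1.04 in replicate 1. With 28 members at 20 TPM or more and 44 at 5 TPM, and with 20 to 26 promoters holding both motifs, the other counts moved by less than 1.5 times. The 2 libraries limit every difference between replicates, which has no error of its own.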
